A study of Homo sapiens with 6 samples.

Results

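The p53 pathway was followed through 44 genes known as regulators, binding partners or transcriptional targets of p53. They were chosen by name, by matching the NCBI gene identifiers of the deposited comparison to current gene symbols, and the rule uses no measured value. The choice was nevertheless made with earlier results of these data known. Of the 44 genes, 43 had a row among the 19589 features of the comparison. SPATA18, a gene of mitochondrial quality control, was not analysed here. An adjusted p-value was given for 42 members, of the 14597 features that had one. The member without one was EDA2R, a receptor of the tumour necrosis factor family, with 1, 0 and 1 reads in the siHOTAIR libraries and 3 and 1 reads in the siNC libraries.

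p53 is a transcription factor that is kept low in unstressed cells by MDM2 and MDM4 and is stabilised after DNA damage through the kinases ATM, ATR and CHEK2. Its targets halt the cell cycle, repair DNA, adjust metabolism or start apoptosis and autophagy, and several of them, MDM2 and PPM1D among them, feed back on p53 itself. p21, the product of CDKN1A, also lowers the transcription of many mitotic genes through the DREAM repressor complex.

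The siHOTAIR group was transfected with a small interfering RNA against HOTAIR, a long non-coding RNA of the HOXC cluster, and the siNC group with a negative control small interfering RNA. Both groups carry the label HepG2, the name of a human liver tumour line, and the sources used here give neither the sequence of the interfering RNAs nor the time after transfection. The RNA was total RNA freed of ribosomal RNA, and each group has 3 libraries in the labels. The deposited means are sums of whole reads over 3 siHOTAIR libraries and 2 siNC libraries, so that 1 labelled siNC library is not accounted for, and the libraries are named A, B and C here because their replicate numbers are unknown. The reads of each library were recovered from the deposited means, and values are given as normalized reads, which are reads divided by the library's size factor. Whether the libraries stem from separate cultures is not stated, and the p-values therefore cover only the spread between these libraries, which can be technical.

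Over the features whose reads were recovered, the siHOTAIR libraries held 4818475 to 6295402 reads and the siNC libraries 6325544 and 4829859 reads. HOTAIR had 62.4, 78.2 and 59.7 normalized reads in the siHOTAIR libraries, against 202 and 150 in the siNC libraries, and its log2 fold change in the authors' deposited table was -1.37 (SE 0.197, adjusted p = 5.6e-11). Markers of the labelled liver lineage were near 0. Of 10 such markers, 5 had no row, 4 had a mean under 1 normalized read, and HNF4A had a mean of 5.06 in the authors' deposited table. Of 6 markers of squamous and other epithelia, KRT7 had a mean of 11510 normalized reads and a log2 fold change of -0.06 (adjusted p = 0.615) in the authors' deposited table, EPCAM and KRT14 had means under 1, TP63 and CDH1 had few reads, and KRT5 was not analysed here. These markers go against the label HepG2, and the libraries are called by their label only. Fibroblast markers summed to 2180 to 2565 normalized reads in siHOTAIR libraries and 1280 to 1286 in siNC libraries, a sum made up mostly of COL1A1, with 1755 to 2144 in siHOTAIR and 1051 to 1078 in siNC. COL1A1, PDGFRB and DCN rose, while THY1, COL3A1 and ACTA2 did not pass, with log2 fold changes of 0.71, -0.07 and -0.47 in the authors' deposited table, so the list did not move as a whole. Endothelial markers summed to 1928 to 1962 normalized reads in siHOTAIR libraries and 1280 to 1391 in siNC libraries, nearly all of it ENG, which had 1811 to 1843 in siHOTAIR and 1206 to 1315 in siNC. ENG rose, VWF rose on at most 12 reads in a library, and CDH5 (0.47) and PECAM1 (-0.16) did not pass in the authors' deposited table. Leukocyte markers summed to 132 to 158 in siHOTAIR libraries and 184 to 205 in siNC libraries, mostly CD68, the 1 of 3 tested that fell. The part of these genes in the results below was not tested. In RNA from a whole culture, fewer cells of a type and less RNA per cell cannot be told apart.

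After siHOTAIR, 17 of the 42 tested members changed at an adjusted p under 0.05 in the authors' deposited table, 4 upward and 13 downward. The share that changed was 40.5%, against 40.4% of all tested features, so the members as a whole did not stand apart in how often they changed. Those that rose made up 9.52% of members, against 20.04% of all tested features, and those that fell 31.0%, against 20.4%. The members that rose were PERP, AEN, CCNG1 and FDXR. The members that fell were GDF15, RRM2B, SERPINB5, ATR, ZMAT3, GADD45B, CDKN1A, PLK3, TP53INP2, DRAM1, RPS27L, TRIAP1 and DDB2. Changes of at least 2-fold were seen in PERP, upward, and in GDF15, RRM2B, SERPINB5 and ATR, downward, which is 11.9% of members against 6.25% of tested features (2.73% upward and 3.51% downward). The median log2 fold change was -0.11 over the members and 0.01 over all tested features, and 27 members (64.3%) lay below 0, against 49.3% of tested features. The 25 members that did not pass had log2 values of -0.35 to 0.996 in the authors' deposited table.

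**Figure D1:**
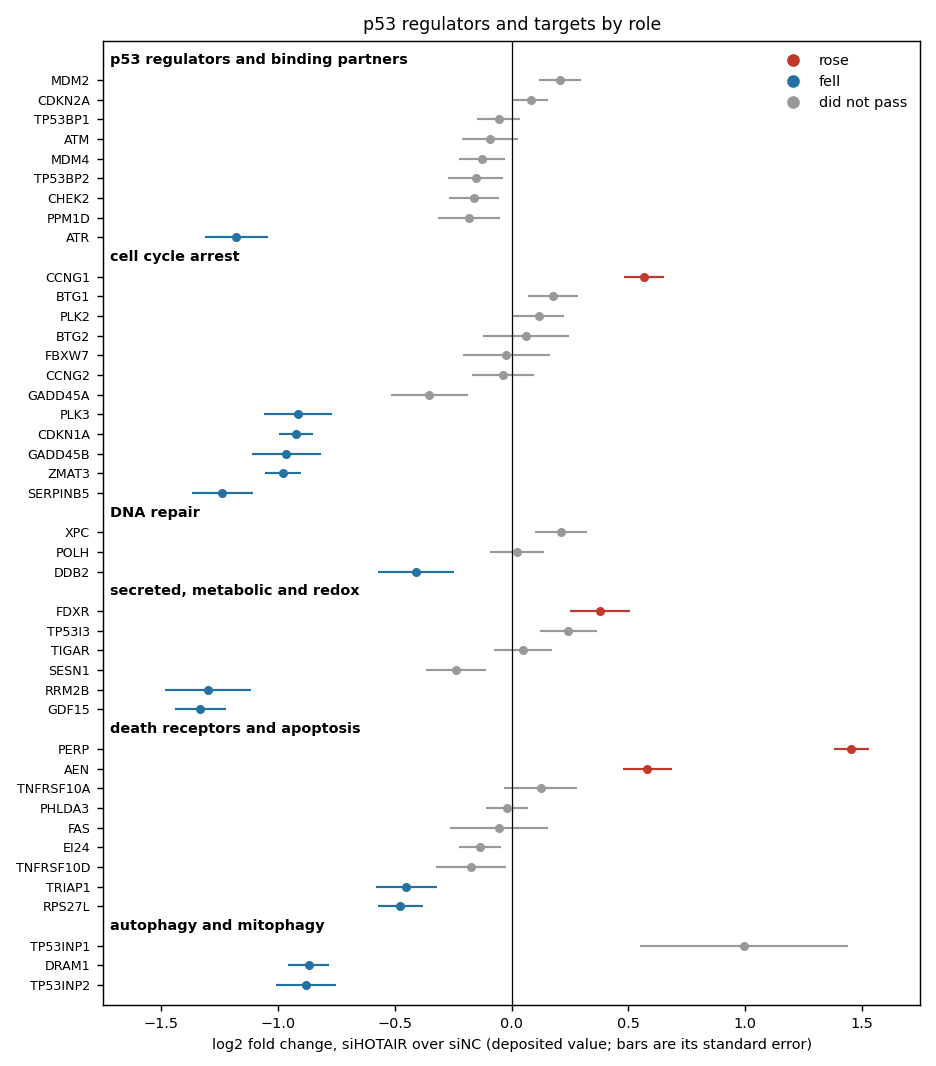
The log2 fold change of siHOTAIR over siNC is plotted for the 42 tested members by role, with bars for its standard error; red points rose, blue points fell and grey points did not pass. The 13 blue points are spread over all 6 roles, and the 4 red points over 3 of them.

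Among the 9 regulators and binding partners of p53, 1 changed (11.1%, against 40.4% of all tested features). The role groups hold 3 to 12 tested genes each, so that their shares rest on few genes. ATR, the kinase that signals stalled replication forks (NCBI gene 545, chromosome 3), had 150, 157 and 141 normalized reads in the siHOTAIR libraries, against 346 and 337 in the siNC libraries. All 3 siHOTAIR libraries were low and lay far from both siNC libraries. ATR averaged 149 ± 8.29 normalized reads in siHOTAIR (SD, n = 3) and 341.5 ± 6.03 in siNC (SD, n = 2), 43.7% of the siNC level, and its log2 fold change in the authors' deposited table was -1.18 (SE 0.134, adjusted p = 5.82e-17). ATM, the kinase that responds to double-strand breaks, had 397, 404 and 452 normalized reads in siHOTAIR libraries, against 503 and 382 in siNC libraries, and the groups overlapped. Its log2 fold change in the authors' deposited table was -0.09 (SE 0.120, adjusted p = 0.585).

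MDM2, the ubiquitin ligase that marks p53 for degradation and is itself a p53 target, had 860, 780 and 787 normalized reads in siHOTAIR libraries, against 731 and 671 in siNC libraries. The groups did not overlap, and the lowest siHOTAIR library lay close to the highest siNC library. The log2 fold change of MDM2 in the authors' deposited table was 0.21 (SE 0.0899, adjusted p = 0.0541), which misses the threshold, while limma on the recovered reads gave an adjusted p of 0.0436. MDM4, the MDM2 relative that blocks p53 activity, had 591, 530 and 639 normalized reads in siHOTAIR libraries, against 630 and 653 in siNC libraries, and the groups overlapped. CDKN2A, which encodes both p16 and the MDM2 inhibitor ARF, had 1727, 1667 and 1791 normalized reads in siHOTAIR libraries, against 1562 and 1709 in siNC libraries, again with overlap. In the authors' deposited table the log2 fold change was -0.13 for MDM4 (adjusted p = 0.317) and 0.08 for CDKN2A (adjusted p = 0.405), and the counts do not tell the p16 and ARF transcripts apart. CHEK2, the checkpoint kinase downstream of ATM, had 360, 359 and 382 normalized reads in siHOTAIR libraries, against 422 and 398 in siNC libraries. PPM1D, the phosphatase that switches off the p53 response, had 249, 211 and 223 normalized reads in siHOTAIR libraries, against 250.3 and 270.0 in siNC libraries. The groups did not overlap for either gene, and neither passed, with log2 fold changes of -0.16 (SE 0.108, adjusted p = 0.24) for CHEK2 and -0.18 (SE 0.133, adjusted p = 0.281) for PPM1D in the authors' deposited table. The damage mediator TP53BP1 and the p53 cofactor TP53BP2 had log2 fold changes of -0.06 (adjusted p = 0.683) and -0.15 (adjusted p = 0.312) in the authors' deposited table.

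Of 12 members placed in the cell cycle group, which includes ZMAT3 and SERPINB5, 5 fell (41.7%, against 20.4% of all tested features) and 1 rose (8.33%, against 20.04%). CDKN1A, which encodes the cyclin-dependent kinase inhibitor p21 (gene 1026, chromosome 6), had 1273, 1255 and 1268 normalized reads in the siHOTAIR libraries, against 2291 and 2528 in the siNC libraries. The siHOTAIR libraries lay close together and all were low. CDKN1A averaged 1265 ± 9.36 normalized reads in siHOTAIR (SD, n = 3) and 2410 ± 167 in siNC (SD, n = 2), and its log2 fold change in the authors' deposited table was -0.92 (SE 0.0720, adjusted p = 1.37e-35). ZMAT3, an RNA-binding zinc finger protein (gene 64393, chromosome 3), had 827, 804 and 836 normalized reads in siHOTAIR libraries, against 1695 and 1553 in siNC libraries. Its siHOTAIR mean was 50.6% of the siNC mean, and the log2 fold change in the authors' deposited table was -0.98 (SE 0.0779, adjusted p = 3.9e-34).

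SERPINB5, which encodes maspin, a serpin that does not inhibit proteases (gene 5268, chromosome 18), had 166, 148 and 153 normalized reads in siHOTAIR libraries, against 370 and 375 in siNC libraries. Its log2 fold change in the authors' deposited table was -1.24 (SE 0.131, adjusted p = 1.35e-19), the lowest of the cell cycle group. PLK3, a stress-responsive polo-like kinase (gene 1263, chromosome 1), had 132.5, 132 and 161 normalized reads in siHOTAIR libraries, against 259.5 and 279 in siNC libraries. GADD45B, a stress sensor upstream of the p38 and JNK kinases (gene 4616, chromosome 19), had 147, 143.5 and 176 normalized reads in siHOTAIR libraries, against 274 and 341 in siNC libraries. For both genes library C was the highest of the siHOTAIR libraries and still lay below both siNC libraries. In the authors' deposited table the log2 fold change was -0.91 for PLK3 (SE 0.147, adjusted p = 5.93e-09) and -0.96 for GADD45B (SE 0.147, adjusted p = 7.12e-10).

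CCNG1, which encodes cyclin G1, a protein that recruits a phosphatase to MDM2 (gene 900, chromosome 5), went the other way. It had 1548, 1338 and 1338 normalized reads in siHOTAIR libraries, against 928.5 and 975 in siNC libraries, and the groups lay apart. Its log2 fold change in the authors' deposited table was 0.57 (SE 0.0850, adjusted p = 4.19e-10). GADD45A, the relative of GADD45B, had 143, 150 and 113 normalized reads in siHOTAIR libraries, against 184 and 162.5 in siNC libraries. The groups did not overlap, but the log2 fold change of -0.35 in the authors' deposited table did not pass (SE 0.166, adjusted p = 0.0766), while limma on the recovered reads gave an adjusted p of 0.0197. The antiproliferative genes BTG1 and BTG2, cyclin G2 (CCNG2), the kinase PLK2 and the ubiquitin ligase subunit FBXW7 had log2 fold changes of -0.04 to 0.18 in the authors' deposited table, with adjusted p of 0.185 to 0.941.

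**Figure D2:**
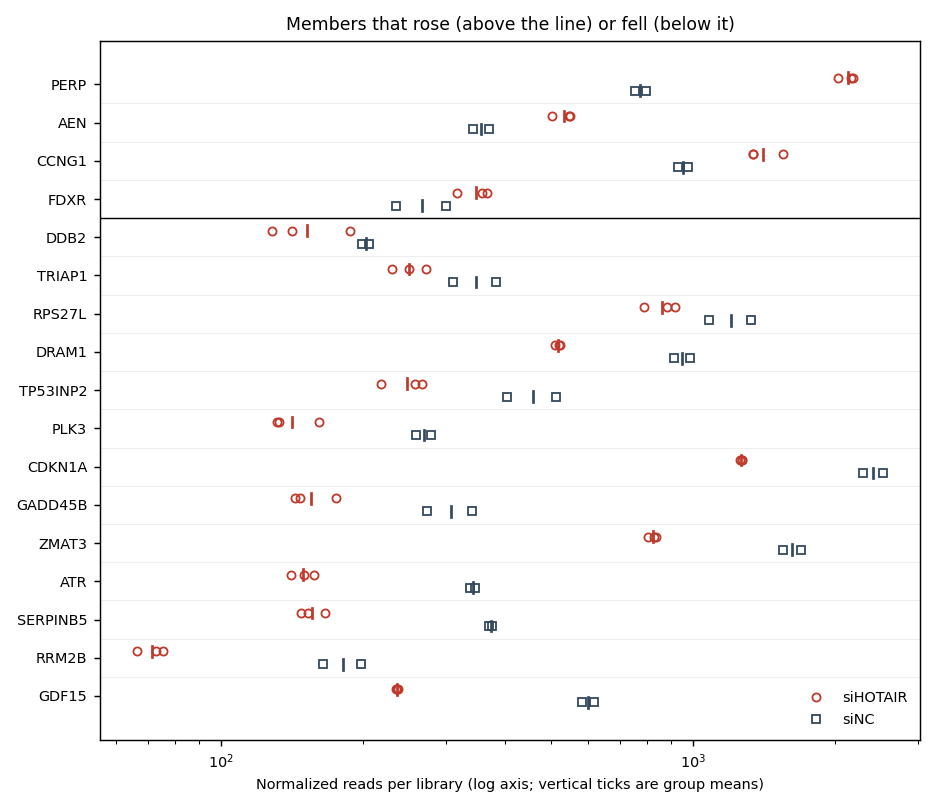
Normalized reads of each library are plotted on a log axis for the 17 members that changed, with siHOTAIR circles above siNC squares in each row and a tick at each group mean. In all 17 rows the siHOTAIR libraries lie on 1 side of the siNC libraries, with the narrowest gaps for DDB2 and FDXR. The members shown were called from these same libraries.

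Of 3 DNA repair members, 1 fell (33.3%, against 20.4% of all tested features). DDB2, the damage-binding subunit that starts nucleotide excision repair in chromatin (gene 1643, chromosome 11), had 128, 141 and 188 normalized reads in siHOTAIR libraries, against 199 and 206 in siNC libraries. Library C lay close to the siNC libraries, and the groups did not overlap. The log2 fold change of DDB2 in the authors' deposited table was -0.41 (SE 0.164, adjusted p = 0.0327). On the recovered reads limma gave an adjusted p of 0.00518, which was 0.0582 at most when 1 library was left out, so that the call was lost without siHOTAIR library A or without siNC library B. XPC, the damage sensor of the same repair pathway, had 395, 393 and 371 normalized reads in siHOTAIR libraries, against 347 and 319 in siNC libraries. The XPC groups did not overlap, and its log2 fold change of 0.21 in the authors' deposited table did not pass (SE 0.112, adjusted p = 0.124). POLH, the translesion polymerase eta, had a log2 fold change of 0.02 in the authors' deposited table (SE 0.116, adjusted p = 0.902).

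Among 6 secreted, metabolic and redox members, 2 fell (33.3%, against 20.4% of all tested features) and 1 rose (16.7%, against 20.04%). GDF15, a secreted stress cytokine of the TGF-beta family (gene 9518, chromosome 19), had 237, 237 and 235 normalized reads in the siHOTAIR libraries, against 616 and 583 in the siNC libraries. The siHOTAIR libraries were nearly equal, at 236.5 ± 0.964 (SD, n = 3), and the siNC libraries averaged 599 ± 23.7 (SD, n = 2). GDF15 had the lowest log2 fold change of all members in the authors' deposited table, at -1.33 (SE 0.109, adjusted p = 3.83e-32). RRM2B, the p53-inducible subunit of ribonucleotide reductase that supplies deoxynucleotides for repair (gene 50484, chromosome 8), had 75.4, 72.8 and 66.5 normalized reads in siHOTAIR libraries, against 165 and 198 in siNC libraries. RRM2B was at 39.4% of its siNC mean, with a log2 fold change in the authors' deposited table of -1.30 (SE 0.184, adjusted p = 2.57e-11).

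FDXR, the mitochondrial ferredoxin reductase (gene 2232, chromosome 17), had 316, 356.5 and 366 normalized reads in siHOTAIR libraries, against 234 and 299 in siNC libraries. The siNC libraries differed from each other by more than the groups did at their nearest. The log2 fold change of FDXR in the authors' deposited table was 0.38 (SE 0.129, adjusted p = 0.0111), and with limma on the recovered reads the log2 fold change was 0.38 with all libraries (adjusted p = 0.00222), 0.21 without siNC library A (adjusted p = 0.197) and 0.56 without siNC library B (adjusted p = 0.000601). The quinone oxidoreductase TP53I3 had 320.5, 315 and 297 normalized reads in siHOTAIR libraries, against 256 and 270 in siNC libraries. The TP53I3 groups did not overlap, and its log2 fold change of 0.24 in the authors' deposited table did not pass (SE 0.121, adjusted p = 0.0998), while limma gave an adjusted p of 0.0493. SESN1, a sestrin that restrains mTORC1, and TIGAR, a fructose bisphosphatase that slows glycolysis, had log2 fold changes of -0.24 and 0.05 in the authors' deposited table, with adjusted p of 0.127 and 0.8.

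The 9 tested members that act in apoptosis were divided, with 2 that rose and 2 that fell (22.2% each, near the 20.04% and 20.4% of all tested features). PERP, a membrane protein of desmosomes that p53 induces during apoptosis (gene 64065, chromosome 6), had 2186, 2163 and 2032 normalized reads in siHOTAIR libraries, against 753 and 795 in siNC libraries. All 3 siHOTAIR libraries were high, at 2127 ± 82.7 (SD, n = 3) against 774 ± 30.3 in siNC (SD, n = 2). PERP had the highest log2 fold change of all members in the authors' deposited table, at 1.45 (SE 0.0758, adjusted p = 3.51e-79). AEN, a nuclease that digests DNA during apoptosis (gene 64782, chromosome 15), had 548, 545 and 504 normalized reads in siHOTAIR libraries, against 342 and 370 in siNC libraries. Its log2 fold change in the authors' deposited table was 0.58 (SE 0.105, adjusted p = 2.96e-07).

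RPS27L, a ribosomal protein paralogue that interacts with MDM2 (gene 51065, chromosome 15), had 916.5, 879 and 786 normalized reads in siHOTAIR libraries, against 1081 and 1327 in siNC libraries. TRIAP1, an inhibitor of caspase activation at mitochondria (gene 51499, chromosome 12), had 272, 250.5 and 230 normalized reads in siHOTAIR libraries, against 310 and 383 in siNC libraries. For both genes the siNC libraries lay apart from each other, with library B the higher, and the siHOTAIR libraries lay below both. The log2 fold change in the authors' deposited table was -0.48 for RPS27L (SE 0.0967, adjusted p = 6.46e-06) and -0.45 for TRIAP1 (SE 0.130, adjusted p = 0.00217). For TRIAP1, limma on the recovered reads gave an adjusted p of 0.000331, and of 0.0668 without siNC library B. The death receptors FAS and TNFRSF10A, the decoy receptor TNFRSF10D, the AKT inhibitor PHLDA3 and the endoplasmic reticulum protein EI24 had log2 fold changes of -0.17 to 0.12 in the authors' deposited table, with adjusted p of 0.241 to 0.89. FAS, the receptor of the FAS ligand, had 79.7, 80.3 and 77.7 normalized reads in siHOTAIR libraries, against 87.9 and 76.2 in siNC libraries, and the groups overlapped.

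In the autophagy group 2 of 3 tested members fell (66.7%, against 20.4% of all tested features). DRAM1, a lysosomal membrane protein needed for autophagy after p53 activation (gene 55332, chromosome 12), had 522, 519 and 509 normalized reads in siHOTAIR libraries, against 912 and 986 in siNC libraries. TP53INP2, a nuclear and autophagosomal scaffold protein (gene 58476, chromosome 20), had 258, 267 and 218.5 normalized reads in siHOTAIR libraries, against 511.5 and 404.5 in siNC libraries. All siHOTAIR libraries were low for both genes. In the authors' deposited table the log2 fold change was -0.87 for DRAM1 (SE 0.0891, adjusted p = 8.1e-21) and -0.88 for TP53INP2 (SE 0.129, adjusted p = 1.4e-10). TP53INP1, the paralogue that links p53 to apoptosis and autophagy, had few reads, with 12.99, 20.3 and 27.0 normalized reads in siHOTAIR libraries, against 8.37 and 8.96 in siNC libraries. The TP53INP1 groups did not overlap, but its log2 fold change of 0.996 in the authors' deposited table did not pass (SE 0.446, adjusted p = 0.0605).

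Among 9 related pairs of members, 5 held 1 member that changed and 1 that did not, and in the other 4 neither changed. TP53BP1 and TP53BP2 are paired by name and binding partner and are not a family. Of all tested features 40.4% changed, and how often unrelated pairs would split in this way was not tested. TP53INP1 and TP53INP2 had the widest gap in log2 fold change, at 1.88, followed by 1.08 for ATM and ATR and by 1.03 for PLK2 and PLK3. PLK2, a polo-like kinase that p53 also induces, had 560, 552 and 462 normalized reads in siHOTAIR libraries, against 512 and 455 in siNC libraries, and the groups overlapped, unlike those of PLK3. The gap was 0.61 for GADD45A and GADD45B and 0.60 for CCNG1 and CCNG2. CCNG2 had 229, 230 and 231 normalized reads in siHOTAIR libraries, against 223 and 251 in siNC libraries. These gaps are differences between 2 deposited log2 fold changes and were not themselves tested.

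**Figure D3:**
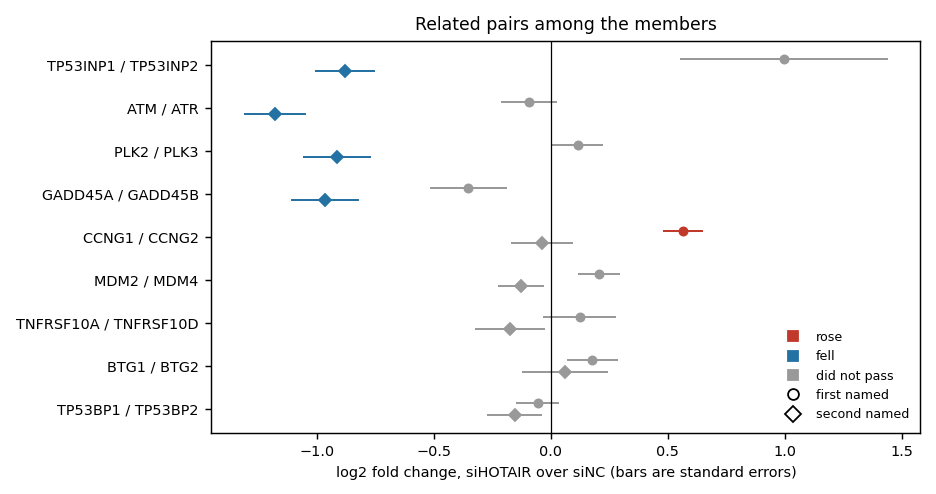
Each row holds 2 related members, the first named as a circle and the second as a diamond, at the log2 fold change of siHOTAIR over siNC with its standard error. Blue diamonds stand alone at the left in the rows of TP53INP2, ATR, PLK3 and GADD45B, and the only red circle is CCNG1.

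For the 41 members with a mean of 20 to 3000 normalized reads, the spread between single libraries could be set against the group difference. The siHOTAIR libraries lay wholly below the siNC libraries for 19 members (46.3%, against 34.98% of 11648 features in the same range) and wholly above for 8 members (19.5%, against 32.4%). Taken without regard to direction, 27 members (65.9%) had groups that did not overlap, against 67.4% of those features. All 17 changed members were among them, as were 10 members that did not pass. The calls rest on the same libraries, so this separation is no separate support for them. With limma on the recovered reads, 6 of 41 members rose and 14 fell, while 25.7% of the 11648 features rose and 27.9% fell, 53.6% in all, and the gains over the authors' deposited table were MDM2, GADD45A and TP53I3.

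The promoters of the members were searched for the p53 consensus decamer, and its carriers are shown because they include members that rose, fell and did not pass. A full p53 element is a pair of such decamers, and the decamer reads the same on both strands, so 1 search covers both. The windows run from 250 bases before to 50 after each start of RefSeq (GRCh38.p14), and 38 members had at least 1. The 6 without a window were GADD45A, TP53INP1, RRM2B, PHLDA3, TNFRSF10A and TNFRSF10D. An exact decamer lay in the window of 8 of these 38 members (21.1%), against 8.06% of all 27305 genes in the table. The members were chosen as genes known to be tied to p53, so this share is not independent of the choice. Sites outside the window or with a mismatch were not searched for, so members without a match may still have one. Of the 8 members, 2 rose (AEN and FDXR), 2 fell (DDB2 and RPS27L) and 4 did not pass (SESN1, PLK2, FAS and EI24). Among the members with a window, 4 rose, 12 fell and 20 did not pass, so that these counts rest on few genes. Of all tested features 20.04% rose and 20.4% fell. DDB2 held 2 decamers separated by 1 base, an arrangement with at most 13 bases between decamers that 10 of the 27305 genes had (0.037%). The stretches follow 5′ to 3′ on the gene's strand, with each decamer in capitals; DDB2 lies at chr11:47214959-47215003 (+), AEN at chr15:88621286-88621335 (+), FDXR at chr17:74872976-74873025 (-), RPS27L at chr15:63157507-63157556 (-), SESN1 at chr6:109009008-109009057 (-), PLK2 at chr5:58460189-58460238 (-), FAS at chr10:88991289-88991338 (+) and EI24 at chr11:125569447-125569496 (+).
DDB2: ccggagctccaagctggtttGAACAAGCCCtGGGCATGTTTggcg
AEN: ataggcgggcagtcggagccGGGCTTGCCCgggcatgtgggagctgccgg
FDXR: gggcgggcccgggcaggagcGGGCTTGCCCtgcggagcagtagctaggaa
RPS27L: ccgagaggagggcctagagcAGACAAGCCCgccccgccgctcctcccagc
SESN1: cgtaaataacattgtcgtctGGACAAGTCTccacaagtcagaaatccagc
PLK2: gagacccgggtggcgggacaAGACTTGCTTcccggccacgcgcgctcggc
FAS: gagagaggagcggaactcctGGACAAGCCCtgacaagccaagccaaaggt
EI24: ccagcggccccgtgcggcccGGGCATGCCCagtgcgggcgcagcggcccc
The decamer of DDB2 that comes first begins 5 bases after the annotated start and the other 16 bases after it. That of FDXR begins 11 bases before the start, that of AEN 34 and that of RPS27L 59. A match describes these letters only.

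Other genes of the pathway were read from 3 further lists. Of 47 tested further p53 targets, 18 fell and 9 rose. The share that fell was 38.3%, against 20.4% of all tested features, the share that rose was 19.1%, near the 20.04% of all tested features, and 57.4% changed in all, against 40.4%. TM7SF3, a membrane protein of cell survival, had 541, 580 and 540 normalized reads in siHOTAIR libraries, against 1509 and 1598 in siNC libraries, with a log2 fold change of -1.48 in the authors' deposited table (adjusted p = 2.53e-69). IER5, an immediate early gene, had a log2 fold change of -1.16 in the authors' deposited table (adjusted p = 1.29e-27), and FHL2, a LIM domain cofactor, one of -0.88 (adjusted p = 3.4e-24). Of those that rose, the phosphatase PTP4A1 had 0.78 (adjusted p = 6.41e-23) and the adaptor TRAF4 had 0.62 (adjusted p = 1.55e-14) in the authors' deposited table. The median of the further targets was -0.05, near that of all tested features, at 0.01.

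Of 23 further p53 regulators, 8 rose (34.8%, against 20.04% of all tested features) and 6 fell (26.1%, against 20.4%), so that 60.9% changed, against 40.4%. HIPK2, a kinase that phosphorylates p53 for apoptosis, had 203, 233 and 295 normalized reads in siHOTAIR libraries, against 535 and 494 in siNC libraries. Its log2 fold change in the authors' deposited table was -1.07 (SE 0.131, adjusted p = 6.48e-15). USP7, the protease that removes ubiquitin from MDM2 and p53, and PPP1R13L, which encodes the p53 inhibitor iASPP, had log2 fold changes of -0.39 (adjusted p = 5.62e-06) and -0.54 (adjusted p = 4.43e-10) in the authors' deposited table. DAXX, a histone chaperone that binds MDM2, had 1256, 1201 and 1154 normalized reads in siHOTAIR libraries, against 716 and 728 in siNC libraries, with a log2 fold change of 0.74 in the authors' deposited table (adjusted p = 6.18e-18).

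Among 20 genes known to be repressed through p21 and DREAM, 6 rose, 0 fell and 14 did not pass in the authors' deposited table. Of all tested features 20.04% rose and 20.4% fell. The share of the list that rose was above that of all tested features, and the share that changed was below their 40.4%. At an unadjusted p under 0.05 there were 8 of the 20 genes, of either direction, and the share of all features at that threshold was not counted. Of 18 genes with recovered reads, limma called 7 higher (38.9%, against 25.7% of 11648 features) and 1 lower (5.56%, against 27.9%). MYBL2, the transcription factor B-MYB, had 2772, 2895 and 3061 normalized reads in siHOTAIR libraries, against 1165 and 1280 in siNC libraries, and its log2 fold change in the authors' deposited table was 1.25 (SE 0.0753, adjusted p = 3.6e-59). BIRC5, which encodes survivin, had 986, 894 and 943 normalized reads in siHOTAIR libraries, against 606 and 673 in siNC libraries, with a log2 fold change of 0.56 in the authors' deposited table (adjusted p = 5.36e-09). The others that rose were TOP2A, PLK1, AURKB and BUB1B, with log2 fold changes of 0.24 to 0.39 in the authors' deposited table. The mitotic kinase CDK1 and cyclin B1 (CCNB1) did not pass, with -0.06 (adjusted p = 0.669) and 0.02 (adjusted p = 0.889) in the authors' deposited table.

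**Figure D4:**
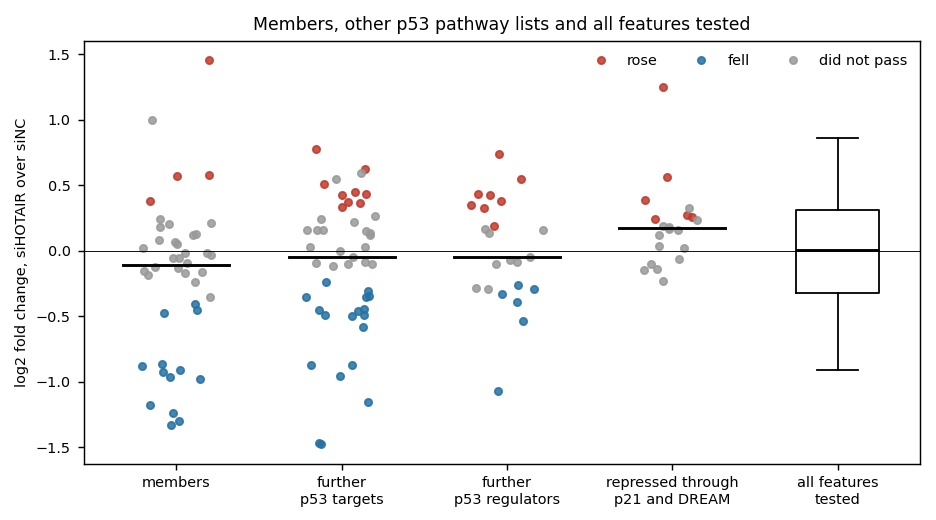
Points show the log2 fold change of siHOTAIR over siNC of each tested gene in 4 lists, red for genes that rose, blue for genes that fell and grey for genes that did not pass, with a line at the median. The box for all 14597 tested features shows the median and quartiles with whiskers at the 5th and 95th percentiles; the medians are -0.11 for the members, -0.05 for both further lists and 0.17 for the genes repressed through p21 and DREAM.

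Several members share sequence or position with other genes, which bears on what a count can include. The kit marks strand, but the sources used here do not say whether counting used it, and reads from the other strand may be included. In GENCODE 29, exons of 18 members overlap exons of a gene on the other strand, and CDKN1A, PLK3, DRAM1 and ATR are the 4 of these that changed. Pseudogenes named after a member exist for 7 members, of which CCNG1 and TRIAP1 changed, and CHEK2 and EI24 have 4 each. For comparison, 40.4% of all tested features changed, and a tie between overlaps or pseudogenes and the changes was not tested.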

How the data were processed

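Per the submitters' processing notes, the authors used HTSeq 0.6.1, DESeq and DESeq2 with hg19; aligner, annotation and strand setting were not given in the sources used here. Their mean column is a deposited signal, reads divided by each library's size factor and averaged over both groups. The deposited log2 fold changes come from the authors with their standard errors, and both are shrunken for features with few reads. The statistic column is a score that the authors deposited, the quotient of these 2. The p-values are the authors', as deposited, adjusted over 14597 features, and recomputing the Benjamini-Hochberg adjustment gave the same values. Members and lists were chosen with earlier results of these data known.

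Each deposited mean of a feature with few reads is a whole-number sum of 5 steps, 1 per library, each the worth of 1 read; a step belongs to siHOTAIR or siNC by the sign of the fold change of features with a single read there. Reads per library were then recovered as the whole numbers that give the deposited mean and, refitted, the deposited fold change and standard error within 1e-05. This gave exactly 1 solution for 11648 of 11673 features with a mean of 20 to 3000, and for all 43 members with a row. On simulated data, 596 of 600 features were recovered right and 0 wrong, and 4 had no or several solutions. The simulated features were modelled on features already recovered and used the same fit. They therefore check the search for whole numbers and not the fit itself.

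The planned edgeR test over all features was not run, since the files hold no count per library for every feature, and 0 columns hold values of single libraries. The call threshold was 0.05 on the authors' adjusted p. limma 3.58.1 (R 4.3.3) with a mean trend took log2 of the recovered normalized reads plus 1, over the features with a mean of 20 to 3000, with Benjamini-Hochberg adjustment. In simulated counts for the 11648 features, limma recovered 51 of 100 changes of 0.5 and 79 of 100 changes of 1 on the log2 scale, with 14 calls among 11448 unchanged features. Far fewer features changed in the simulation than the 53.6% that limma called in the data, so these rates need not hold for the data. Symbols came from the RefSeq table of GRCh38.p14, which matched 19108 features by gene ID and 386 by transcript accession. Named genes were all members, HOTAIR, markers, and up to 4 genes of each further list per direction, ranked by p. Alternatives were other thresholds, minimum means, centring, pseudocounts, limma-voom and leaving out each library. Hand-picked beyond this rule after their values were seen were CDK1, CCNB1, AURKB and BUB1B.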

Additional observations from a re-analysis of the deposited data

How the results depend on the processing

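The limma fits on recovered reads were chosen after the data were seen. No member that changed was called in the opposite direction under any setting. Of 23 further regulators, 8 rose and 6 fell in the authors' deposited table. With limma, 5 rose and 6 fell of the 18 that had recovered reads. Among those without recovered reads, RPL5 and RPL11 rose and PRKDC and HUWE1 fell in the authors' deposited table. The counts of the further regulators therefore cover different genes. Members that did not pass could change sign. The log2 fold change of ATM was -0.27 without siNC library B and 0.12 without siNC library A. No paired analysis was possible because the recovered libraries carry no replicate number. Requiring at least 2-fold, or the authors' own call words, left 1 member that rose and 4 that fell, 0 and 3 further targets, 0 and 1 further regulators, and 1 gene repressed through p21 and DREAM that rose; an adjusted p under 0.01 left 11 further targets that fell and lost DDB2 and FDXR among the members. limma with a mean trend, with pseudocounts of 0.5 or 5, and limma-voom each called 5 further regulators higher, of the 18 with recovered reads, and 1 gene repressed through p21 and DREAM lower, and median centring also called 1 such gene lower; with median centring 7 members rose, XPC among them. The members' median log2 fold change was -0.1329 with limma, -0.1330 and -0.1320 with pseudocounts of 0.5 and 5, and -0.1308 with limma-voom. These fits leave out TP53INP1, whose mean was under 20. Without it the authors' deposited values gave a median of -0.1276, against -0.1104 with it. Over fits that left out 1 library, 4 to 7 members rose and 12 to 14 fell, 5 to 10 further targets rose and 14 to 18 fell, 4 to 5 further regulators rose and 3 to 6 fell, 4 to 7 genes repressed through p21 and DREAM rose and 0 to 1 fell, and the members' median ranged from -0.1407 to -0.0919. The 7 members came from leaving out siHOTAIR library C, which added MDM2, TP53I3 and XPC. Shares over all features were not counted for the fits that left out 1 library, for median centring or for an adjusted p under 0.01. The counts under these settings are therefore not set against all features. DDB2 lost its call without siHOTAIR library A or siNC library B, FDXR without siNC library A and TRIAP1 without siNC library B. The cause of these moves was not tested, except that fewer genes and libraries entered these fits. Restricting the adjustment to features with a mean of at least 20 added MDM2. Depth limits the members with few reads, EDA2R and TP53INP1.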
